A study of Mus musculus with 17 samples.

Results

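The Hox genes are the 39 protein-coding mouse genes whose symbols consist of Hox, a cluster letter from A to D and a paralogue number. They were picked by symbol from the 78298 gene identifiers of the deposited tables, of which 21723 are protein-coding, and all 39 were matched to an identifier. They were measured by bulk RNA sequencing of mouse lumbar (L4-L6) dorsal root ganglia, which hold the cell bodies of sensory neurons. Hox genes encode homeodomain transcription factors that lie in 4 clusters, HoxA to HoxD. Genes of the same paralogue number in different clusters descend from a common ancestral gene. During development, genes of low number are switched on early and from the hindbrain backwards, and genes of high number are switched on later and nearer the tail, so that the highest number active in a segment marks its position along the body. Hox10 genes are known for patterning the lumbar region, Hox11 genes for the sacral region and Hox13 genes for the tail, and part of this code is kept in adult neurons.

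The libraries fall into 4 groups, all with the label day 30. CCI (chronic constriction injury, loose ligatures around the sciatic nerve) was given to mice labelled knockout of Twik-1, a potassium channel encoded by Kcnk1 (3 libraries, numbered 2, 3 and 4), and to wild-type mice (5 libraries). A sham operation was given to mice labelled knockout (4 libraries) and to wild-type mice (5 libraries). Neither the deleted segment of Kcnk1 nor the sex of the animals is given in the sources used here. The labels also do not tie each library to its own animal, so the p-values cover the spread between libraries, which may be technical. The PicoPure and SMART-Seq v4 kits named in the labels keep no record of strand.

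The libraries held 52.52 to 73.58 M gene counts (M, mega), of which 11320 to 18996 (0.0198 to 0.0278%) fell on Hox genes. Kcnk1 itself was still counted in the libraries labelled knockout, at 78.3 to 89.0 counts per M counts (CPM) after CCI and 75.1 to 114.5 CPM after sham, against 106.2 to 121.0 CPM in wild-type CCI and 94.3 to 139.2 CPM in wild-type sham libraries. All 9 sham tables share a number in their names, and each CCI group has its own. What the number stands for is not stated. If it is a batch, that batch cannot be told apart from injury, from genotype after CCI or from the interaction. All 8 sensory neuron markers were present, with Avil between 843.3 and 1052.6 CPM and Pou4f1 between 116.7 and 142.1 CPM. Of the spinal motor neuron markers, Mnx1, Chat and Slc18a3 stayed at or under 0.311 CPM in every library. Others of that list were higher, with Slc5a7 at 1.19 to 5.79 CPM and Isl2 at 226.4 to 352.0 CPM. Several libraries stood apart. Sham libraries 1 and 2 labelled knockout held 140.6 and 103.3 CPM of the axon injury marker Atf3, against 11.1 and 13.2 CPM in sham libraries 3 and 4 labelled knockout. The 5 wild-type sham libraries held 9.41 to 16.7 CPM and the CCI libraries 93.8 to 275.8 CPM. For Atf3 the 2 libraries thus lay in the CCI range despite their sham label. For Npy, another axon injury marker, they held 11.9 and 7.66 CPM, below the 28.9 to 129.0 CPM of the CCI libraries. The 7 axon injury markers summed to 1138.0 and 965.8 CPM in them, against 916.1 to 1859.4 CPM in the CCI libraries. Hox levels also set apart sham libraries 1, 2 and 3 labelled knockout and wild-type sham libraries 1 and 3.

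The sequences before the start sites of 3 members are printed because the results turn on them. Hoxd1 had the highest mean level per kb of exon, Hoxa10 carried most of the paralogue 10 signal, and Hoxd10 separated a single library from all others. Each is the 250 bases before the start in the RefSeq promoter table, on build GRCm38.p6, written 5′ to 3′ on the strand of the gene, at Hoxd1 chr2:74762730-74762979 (plus strand), Hoxd10 chr2:74691641-74691890 (plus strand), Hoxa10 chr6:52234940-52235189 (minus strand).
Hoxd1 promoter: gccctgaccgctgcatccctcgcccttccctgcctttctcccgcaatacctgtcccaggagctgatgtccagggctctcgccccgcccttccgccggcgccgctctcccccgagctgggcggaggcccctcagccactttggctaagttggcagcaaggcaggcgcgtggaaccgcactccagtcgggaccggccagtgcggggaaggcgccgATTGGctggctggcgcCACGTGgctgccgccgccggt
Hoxd10 promoter: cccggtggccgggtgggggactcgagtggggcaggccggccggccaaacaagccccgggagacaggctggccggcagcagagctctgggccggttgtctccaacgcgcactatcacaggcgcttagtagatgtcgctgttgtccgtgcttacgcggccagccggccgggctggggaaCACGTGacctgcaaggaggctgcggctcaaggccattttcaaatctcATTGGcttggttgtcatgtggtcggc
Hoxa10 promoter: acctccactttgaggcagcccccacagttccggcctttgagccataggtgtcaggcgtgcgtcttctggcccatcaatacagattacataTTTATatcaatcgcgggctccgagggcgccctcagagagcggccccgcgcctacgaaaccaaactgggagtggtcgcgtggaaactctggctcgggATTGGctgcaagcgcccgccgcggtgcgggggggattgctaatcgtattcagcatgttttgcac
Capitals mark matches, on either strand, to CCAAT (a common core promoter box, shown as ATTGG on the other strand), to the palindrome CACGTG (an E-box) and to TTTAT (a short AT-rich word that Hox proteins of high number can bind). These motifs were chosen after the sequences were seen, and no matches overlapped. CCAAT lay in all 3, beginning 37 bases before the start of Hoxd1, 26 before Hoxd10 and 64 before Hoxa10, and was found in 33.8% of the 32851 promoters of the same length in the table. CACGTG lay 21 bases before the start of Hoxd1 and 73 before Hoxd10, and was found in 6.02% of all promoters. TTTAT lay 160 bases before the start of Hoxa10 and was found in 37.3% of all promoters. The G and C content was 71.6% for Hoxd1, 65.6% for Hoxd10 and 59.2% for Hoxa10, against a median of 52.4% over all promoters. The table held 24 windows for 22 of the 39 Hox genes, so some genes had more than a single window. The Hoxa10 window was picked by its position, and its start need not be the only start of that gene. Hoxb5, Hoxb9 and Hoxc10, which also carry results, are given by name.

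By level, transcripts of paralogues 5 to 10 made up most of the Hox signal, together with Hoxd1. Summed over the 39 genes, the libraries labelled knockout held 228.5 to 239.9 CPM after CCI and 198.9 to 248.1 CPM after sham. The wild-type libraries held 235.8 to 252.2 CPM after CCI and 234.1 to 276.7 CPM after sham. In bulk tissue, fewer cells of a type and less RNA per cell cannot be told apart. In the 5 wild-type sham libraries the sum was 77.1 ± 9.61 CPM (SD) for the 4 Hox9 genes, 38.2 ± 3.37 CPM for the 2 Hox7 genes and 35.6 ± 2.86 CPM for the 3 Hox8 genes. It was 26.9 ± 1.75 CPM for the 3 Hox5 genes, 23.8 ± 7.16 CPM for the 3 Hox10 genes and 14.5 ± 1.86 CPM for the 3 Hox6 genes. Between 4.13 and 6.83 CPM fell on the 4 Hox4 genes in these libraries, and less on the Hox2 and Hox3 genes. The signal ended at paralogue 10 in nearly all libraries. The 9 genes of paralogues 11 to 13 together reached at most 0.340 CPM in 16 of the 17 libraries.

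**Figure D1:**
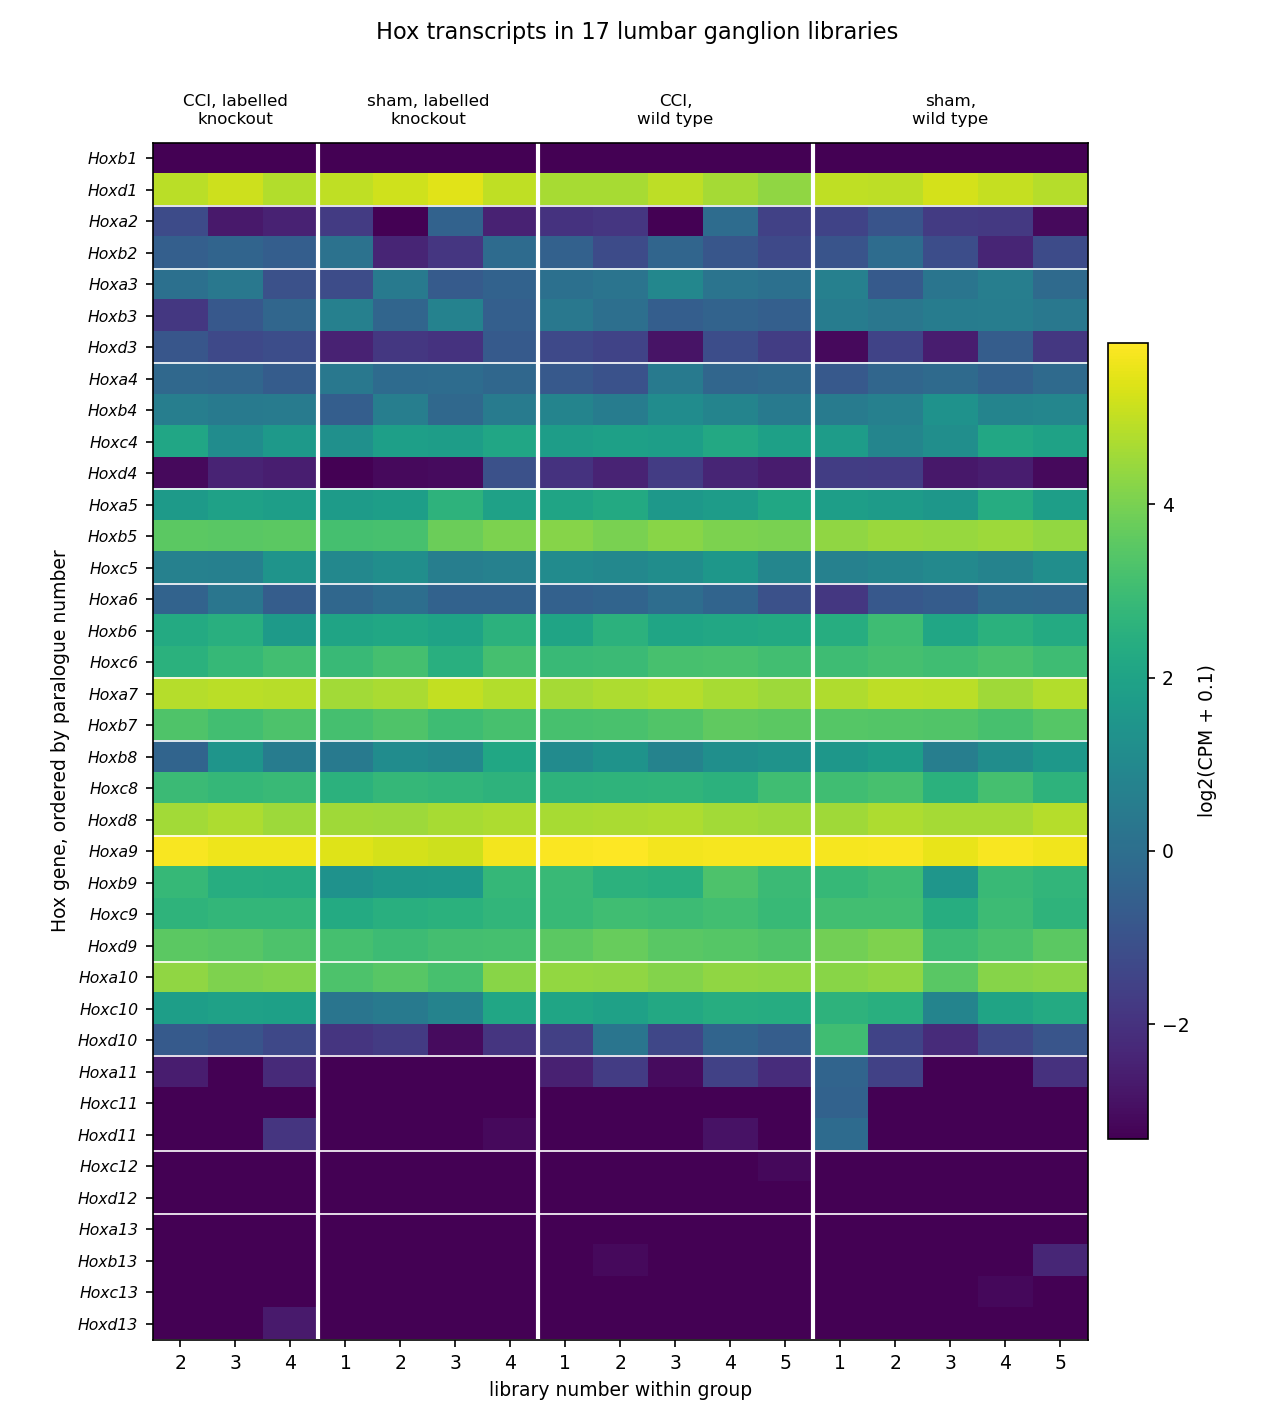
Level of Hox genes, as log2(CPM + 0.1) by colour, with genes down the page by paralogue number and the 17 libraries across by group and library number. Hoxd1, Hoxa7, Hoxd8 and Hoxa9 are bright in every library, paralogues 11 to 13 are dark or nearly so in all libraries other than wild-type sham library 1, and Hoxa10 and Hoxc10 are dimmer in sham libraries 1 to 3 labelled knockout and in wild-type sham library 3.

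Per kb of annotated exon, Hoxd1 stood first in the wild-type sham libraries, at 17.4 ± 2.09 CPM per kb (SD, n = 5). Hoxd1 is known in mouse for its expression in pain-sensing neurons, where it shapes their projections. It was followed by Hoxa7 (9.70 ± 0.982 CPM per kb), Hoxa9 (9.25 ± 0.605), Hoxd8 (8.67 ± 0.717), Hoxb5 (7.73 ± 0.443) and Hoxb7 (6.64 ± 0.468). Hoxa7, Hoxa9 and Hoxd8 overlapped within their SD and have no order among themselves, nor do Hoxd8 and Hoxb5. Hoxd9 (5.49 ± 1.71 CPM per kb) and Hoxa10 (5.30 ± 1.08) came next and overlapped too, and both also overlapped Hoxb7. Divided by the longest transcript in place of all exons, Hoxa9 at 16.0 CPM per kb lay within the SD of Hoxd1 at 17.4, so that these genes have no order on that scale, and Hoxa7 followed at 13.5. The order of Hoxb5 and Hoxb7 and that of Hoxd9 and Hoxa10 turned round on that scale. Of the 4 genes of paralogue 9, Hoxa9 and Hoxd9 stood above Hoxc9 (2.58 ± 0.514 CPM per kb) and Hoxb9 (2.32 ± 0.761). Of the 3 genes of paralogue 10, Hoxa10 stood above Hoxc10 (2.15 ± 0.842) and Hoxd10 (0.989 ± 1.88).

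**Figure D2:**
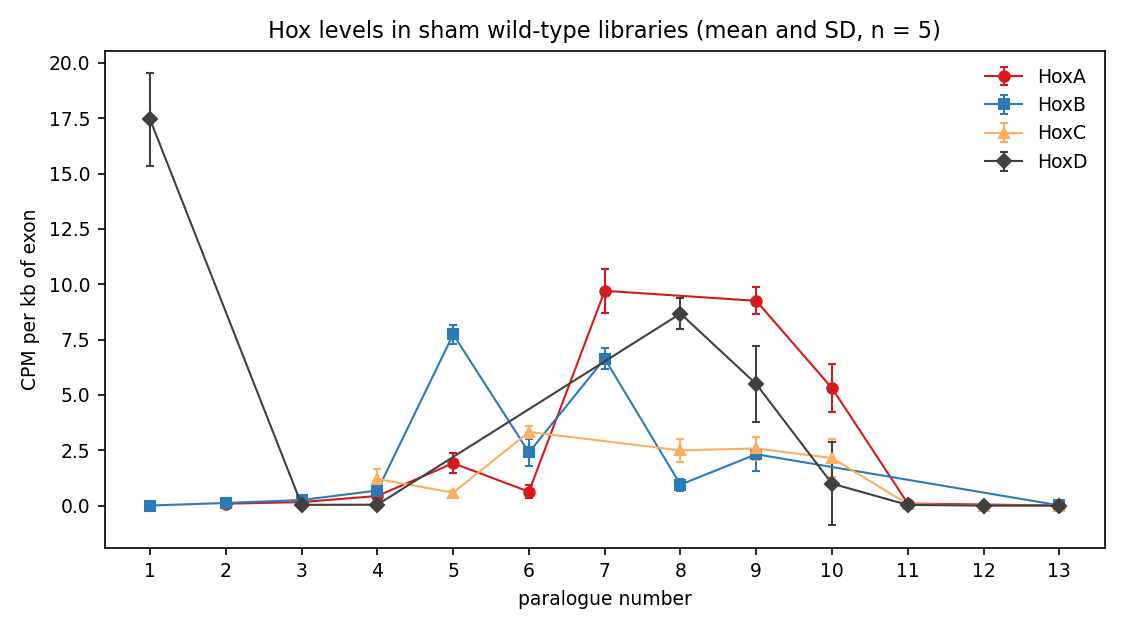
CPM per kb of exon of Hox genes in the 5 wild-type sham libraries by paralogue number, with points for means, bars for SD and lines joining genes of the same cluster. Hoxd1 stands alone at 17.4 CPM per kb, genes of paralogues 5 to 10 lie at up to 9.70, and paralogues 11 to 13 lie near 0.

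Of the 39 members, 19 averaged at least 1 CPM over all 17 libraries and 30 passed the filter on low counts. The 9 that did not pass it were Hoxb1, Hoxc11, Hoxd11, Hoxc12, Hoxd12, Hoxa13, Hoxb13, Hoxc13 and Hoxd13. Hoxb1, Hoxd12 and Hoxa13 had 0 counts in all 17 libraries. A count of 0 allows up to 0.0408 to 0.0571 CPM in a single library and 0.00296 CPM over all 17, for counting error only. Hoxc12 and Hoxc13 had 1 count each, Hoxd13 had 4 and Hoxb13 had 7 over all libraries. Some members share exons with other genes, and without strand such reads cannot be told apart. Other annotated exons covered 52% of Hoxd4, 51.5% of Hoxb3, 43.6% of Hoxa11, 38.5% of Hoxd3 and 30.8% of Hoxb6. They covered 20.3% of Hoxa7, 19% of Hoxa10, 15% of Hoxd8, 9.48% of Hoxb5, 9.35% of Hoxa9, 5.61% of Hoxd10 and 0% of Hoxd1. Levels per kb were divided by all exon bases, shared or not, and the effect of sharing on their order was not tested.

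The HoxA cluster held the largest sum of CPM. On build GRCm39 it spans chromosome 6 from 52132570 to 52237822 on the minus strand, with HoxB on chromosome 11 from 96085106 to 96259082, HoxC on chromosome 15 from 102829538 to 102945278 and HoxD on chromosome 2 from 74498654 to 74595486, all 3 on the plus strand. In wild-type sham libraries HoxA genes took 40.2 ± 0.703% of the Hox CPM, HoxD genes 28.1 ± 1.76%, HoxB genes 19.2 ± 0.729% and HoxC genes 12.5 ± 1.26% (SD, n = 5). These shares were not divided by exon length, so they do not rank the clusters per kb of exon. The clusters also hold 61 other annotated genes, of which 13 averaged at least 0.1 CPM, and all 13 are long noncoding RNAs. The highest were Haglr (8.12 ± 2.04 CPM over all 17 libraries, SD), Gm53 (3.71 ± 1.77), Hoxd3os1 (3.21 ± 0.568) and Hoxaas2 (2.24 ± 0.716). Haglr ends its span at 74593293 on the minus strand of chromosome 2, and Hoxd1 begins at 74593324 on the plus strand, so the genes run away from each other. None of the 13 passed the edgeR threshold in the 4 comparisons between groups.

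Among the 19 members of at least 1 CPM, some varied little over all libraries and others more. Hoxd8 lay between 22.5 and 28.7 CPM over all 17 libraries, with a coefficient of variation of 6.79%. It was 9.78% for Hoxa7 (23.0 to 32.0 CPM), 11.6% for Hoxb7 (7.86 to 12.2 CPM), 12.1% for Hoxa9, 14.3% for Hoxc6 (5.39 to 9.34 CPM) and 15.6% for Hoxc8 (5.77 to 9.02 CPM), the last known for brachial motor neurons. It was 17.1% for Hoxc9 and 18.6% for Hoxd1. It was higher for Hoxb8 (38.8%, 0.673 to 4.30 CPM), for Hoxb6 (22.6%, 3.15 to 7.88 CPM) and for the low members Hoxa5 (2.81 to 6.04 CPM), Hoxc5 (1.41 to 2.82 CPM), Hoxb4 (0.576 to 2.47 CPM) and Hoxc4 (1.69 to 4.54 CPM), at 21.2 to 30.0%. Of the members under 1 CPM, Hoxa2, Hoxb2, Hoxa3, Hoxb3, Hoxd3, Hoxa4 and Hoxa6 averaged between 0.230 and 0.964 CPM over all libraries, and Hoxd4 averaged 0.104 CPM.

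Several members of paralogues 9 and 10 were uneven between libraries of the same group. Hoxa10, of the paralogue group known for lumbar patterning, had 9.79, 10.9, 8.93 and 18.5 CPM in sham libraries 1 to 4 labelled knockout. It had 18.8, 20.3, 11.3, 18.3 and 19.02 CPM in wild-type sham libraries 1 to 5. After CCI it had 20.03, 16.7 and 17.8 CPM in libraries labelled knockout and 20.8, 19.9, 18.0, 20.02 and 19.7 CPM in wild-type libraries. Sham libraries 1, 2 and 3 labelled knockout and wild-type sham library 3 therefore lay below all 13 others. Hoxc10, known for specifying lumbar motor neurons, showed the same libraries low, at 1.10, 1.27, 1.64 and 4.17 CPM in sham libraries labelled knockout and 6.09, 5.48, 1.65, 3.98 and 4.77 CPM in wild-type sham libraries. After CCI Hoxc10 had 3.43, 3.75 and 3.61 CPM in libraries labelled knockout and 4.09, 3.68, 4.51, 5.15 and 5.07 CPM in wild-type libraries.

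Hoxb9 had 2.46, 2.90, 2.99 and 6.92 CPM in sham libraries labelled knockout and 7.02, 7.87, 2.71, 7.33 and 6.46 CPM in wild-type sham libraries. After CCI it had 6.98, 5.18 and 5.00 CPM in libraries labelled knockout and 7.39, 5.81, 5.39, 9.80 and 7.48 CPM in wild-type libraries. Again the same 4 libraries were the lowest. In all, 5 of the 19 members of at least 1 CPM had these 4 libraries as their 4 lowest, and they were Hoxa9, Hoxb9, Hoxc9, Hoxa10 and Hoxc10. Hoxc9 is known for thoracic motor neurons. This grouping was chosen after the values were seen and carries no test. The share of all tested genes with this order was not counted. The 5 genes lie in 3 clusters on 3 chromosomes. Hoxd9 differed, with its lowest libraries being sham libraries 2, 3 and 4 labelled knockout and wild-type sham library 3, between 7.71 and 8.79 CPM, next to 8.80 CPM in sham library 1 labelled knockout. The long noncoding RNA Gm53, which lies between Hoxb13 and Hoxb9, had 1.93, 1.40, 0.914 and 4.22 CPM in sham libraries labelled knockout and 5.70, 7.48, 1.38, 5.83 and 3.86 CPM in wild-type sham libraries.

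Members of lower number did not share this order. Hoxa7, the protein-coding neighbour of Hoxa9, had 24.2, 25.6, 32.0 and 27.6 CPM in sham libraries labelled knockout and 27.2, 30.8, 30.1, 23.6 and 28.1 CPM in wild-type sham libraries, and the groups overlapped. The ratio of Hoxa10 to Hoxa7 was 0.404, 0.425, 0.279 and 0.669 in sham libraries labelled knockout and 0.690, 0.659, 0.375, 0.775 and 0.677 in wild-type sham libraries. After CCI it was 0.558 to 0.700 in libraries labelled knockout and 0.624 to 0.859 in wild-type libraries. Within the HoxC cluster the ratio of Hoxc10 to Hoxc6, a gene known for brachial motor neurons, was 0.148, 0.143, 0.304 and 0.475 in sham libraries labelled knockout and 0.771, 0.628, 0.205, 0.426 and 0.606 in wild-type sham libraries. Within HoxB, the ratio of Hoxb9 to Hoxb7 was 0.279, 0.289, 0.380 and 0.760 in sham libraries labelled knockout and 0.653, 0.742, 0.267, 0.811 and 0.603 in wild-type sham libraries. Such ratios are set within a library and do not depend on its depth. Paralogues 10 to 13 summed to 11.1, 12.4, 10.6 and 22.8 CPM in sham libraries labelled knockout and to 35.04, 26.2, 13.1, 22.6 and 24.5 CPM in wild-type sham libraries, and to 20.9 to 26.1 CPM in the 8 CCI libraries.

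**Figure D3:**
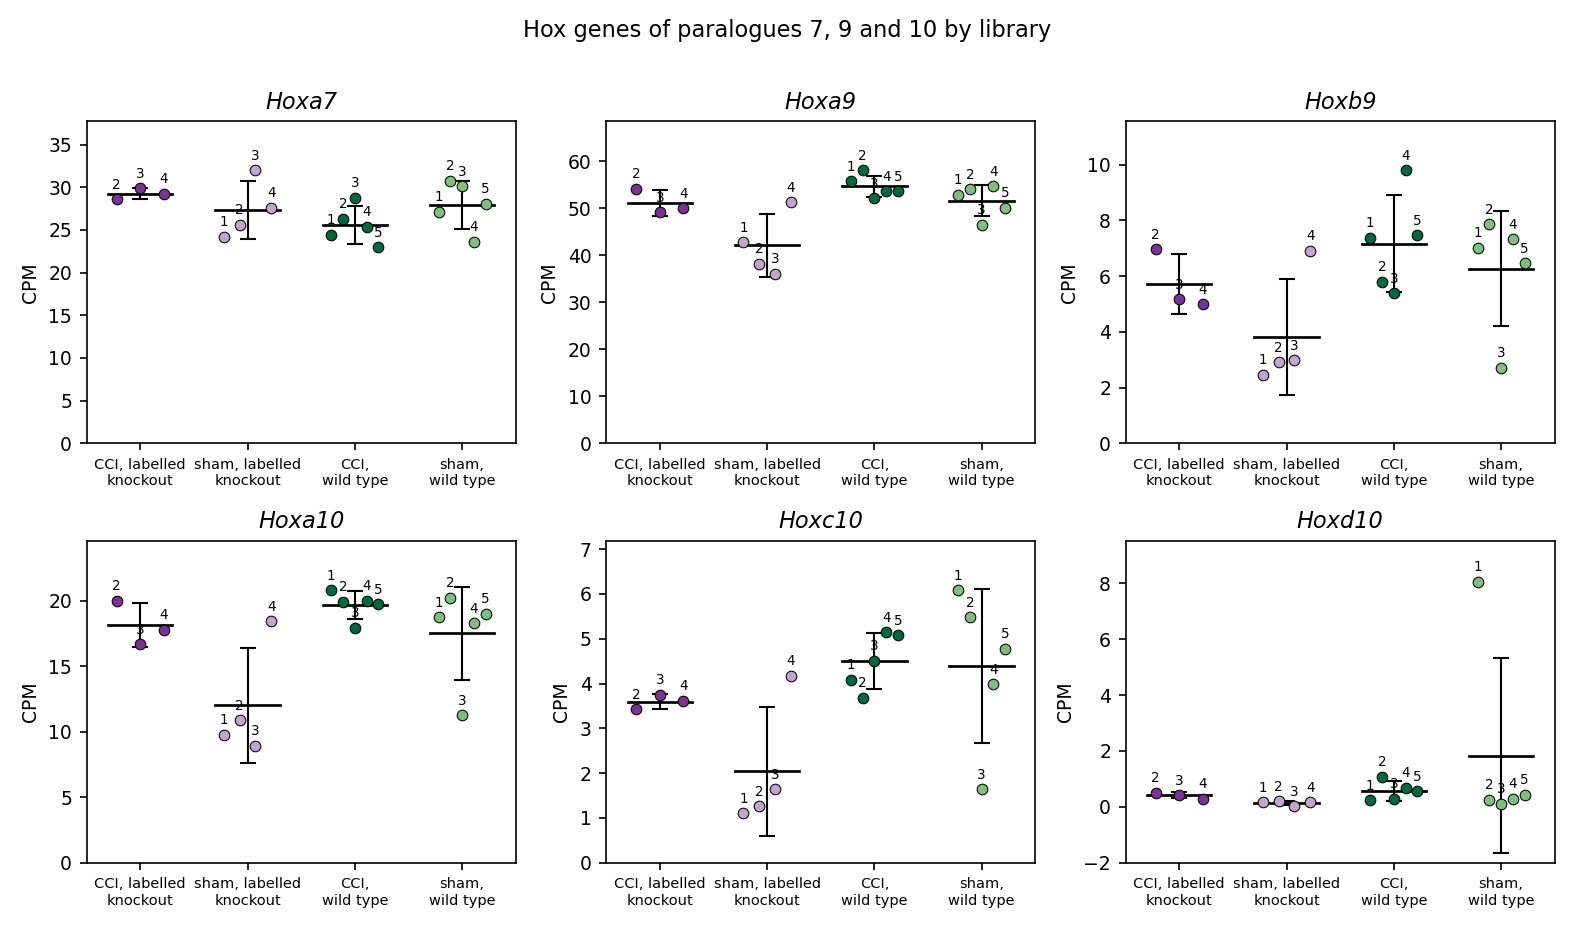
CPM of 6 Hox genes in each library, by group, with points numbered by library, horizontal lines for group means and bars for SD. Sham libraries 1 to 3 labelled knockout and wild-type sham library 3 lie lowest for Hoxa9, Hoxb9, Hoxa10 and Hoxc10 but not for Hoxa7, and wild-type sham library 1 lies alone at 8.06 CPM for Hoxd10.

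Of 12 marker lists, 0 had these 4 libraries as the 4 highest or 4 lowest by summed level. Of the 72 single markers, 1 did, the sensory neuron marker Drgx, a homeodomain factor of pain-sensing neurons. Drgx had 229.3, 244.3, 254.1 and 187.2 CPM in sham libraries labelled knockout and 208.3, 194.6, 210.1, 196.8 and 181.9 CPM in wild-type sham libraries, so that the 4 libraries low for paralogues 9 and 10 were its highest over all 17. Nefh, a neurofilament of large sensory neurons, had 2393, 2382, 2418 and 2997 CPM in sham libraries labelled knockout and 2458, 3359, 1750, 2836 and 2711 CPM in wild-type sham libraries, where library 3 was the lowest of all 17. Atf3 was high in 2 of them and at 11.1 and 15.02 CPM in sham library 3 labelled knockout and wild-type sham library 3. The 6 Schwann cell markers summed to 4491 to 6350 CPM in the 4 sham libraries labelled knockout and to 11177 CPM in wild-type sham library 3, inside the range of 9788 to 13942 CPM over the 5 wild-type sham libraries. The 5 skeletal muscle markers summed to 12.2, 13.8, 905.3 and 3.81 CPM in sham libraries 1 to 4 labelled knockout and to 178.5 CPM in wild-type sham library 3, against 1.85 to 127.1 CPM in the other wild-type sham libraries. The 5 adipocyte markers summed to 98.6 CPM in wild-type sham library 3 and to at most 30.0 CPM in every other library. All 8 sensory neuron markers summed to 8651 to 9099 CPM in sham libraries labelled knockout and 7457 to 9598 CPM in wild-type sham libraries, with wild-type sham library 3 the lowest. The part of these markers in the Hox levels was not tested.

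Hoxd10, also known from lumbar motor neurons, stood apart in the other direction. Wild-type sham library 1 held 8.06 CPM, from 441 counts (unscaled 8.09 CPM, 95% exact binomial interval 7.36 to 8.89). This interval and those that follow cover counting error only, since amplified reads are not independent molecules. The other 16 libraries held at most 1.08 CPM, reached in wild-type CCI library 2. The same library held 0.676 CPM of Hoxa11 (37 counts, unscaled interval 0.478 to 0.936), 0.640 CPM of Hoxc11 (35 counts, 0.447 to 0.893) and 0.823 CPM of Hoxd11 (45 counts, 0.602 to 1.11). Elsewhere Hoxc11 had 0 counts in all 16 libraries, Hoxd11 had 0 counts in 13 of 16 and at most 0.170 CPM, and Hoxa11 had at most 0.244 CPM. Wild-type sham library 1 was thus the library with the most paralogue 11 signal, at 2.14 CPM, against at most 0.283 CPM in any other library. Among the spinal motor neuron markers it also held the highest Chat, at 0.311 CPM, and the highest Mnx1, at 0.128 CPM, while Slc18a3 was at 0. It held the lowest Slc5a7 of all libraries, at 1.19 CPM, and Isl2 was at 321.2 CPM. The part of these markers in the Hox levels was not tested.

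The first comparison asks whether the code changed after nerve injury in wild-type mice. No Hox gene passed an edgeR adjusted p of 0.05 among the 30 tested (23972 genes tested in all, of which 3.06% were called). At an unadjusted p under 0.05 there were 2, Hoxb5 and Hoxd1, both lower after CCI, against 13.8% of all genes in either direction. DESeq2 called 1, Hoxd1. The log2 fold changes of the 19 members of at least 1 CPM lay between −0.37 and 0.26, and the median over the 30 tested was 0.03, beside −0.01 over all tested genes. In the same comparison all 7 axon injury markers were called higher. Of the 8 sensory neuron markers, Tubb3 was called higher, and Scn10a, a sodium channel of pain-sensing neurons, was called lower (−0.27, edgeR adjusted p = 0.0477). Hoxd1 had 25.1, 25.3, 30.9, 24.8 and 19.9 CPM in wild-type CCI libraries and 31.4, 31.0, 38.6, 33.1 and 28.2 CPM in wild-type sham libraries. The groups overlapped through CCI library 3 and sham library 5, and the log2 fold change was −0.37 ± 0.11 (SE, edgeR adjusted p = 0.0762). Without CCI library 3 it was −0.45 (edgeR adjusted p = 0.0153). With the library number as a block it was −0.373 and called (edgeR adjusted p = 0.00345). The part of the neuron markers in the Hoxd1 values was not tested.

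Several members were measured precisely enough to bound an injury effect. The 95% interval (normal, from the SE) of the log2 fold change for CCI over sham in wild type was −0.19 to 0.12 for Hoxd8, −0.07 to 0.23 for Hoxa9, −0.30 to 0.04 for Hoxa7 and −0.20 to 0.26 for Hoxb7. Hoxa10 was less well bounded, at −0.16 to 0.50, and Hoxc10 spanned −0.61 to 0.68. Normal intervals, here and below, are narrower than the edgeR test with its limited degrees of freedom allows. Hoxb3, a gene known for hindbrain patterning, had −0.71 ± 0.37 (edgeR adjusted p = 0.420), and Hoxd10 had −1.68 ± 0.99 (edgeR adjusted p = 0.521). The Hoxd10 estimate rested on wild-type sham library 1, without which it was 1.03 (edgeR adjusted p = 0.538).

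In libraries labelled knockout, CCI against sham, 0 of 30 Hox genes were called by edgeR, beside 0.0834% of all tested genes. At an unadjusted p under 0.05 there were 5, among them Hoxa9, Hoxa10, Hoxa11 and Hoxb3, against 8.63% of all genes, and DESeq2 called 0. Hoxa9 averaged 51.1 ± 2.72 CPM in CCI libraries and 42.1 ± 6.74 CPM in sham libraries labelled knockout (SD, n = 3 and 4), with a log2 fold change of 0.28 ± 0.09 (edgeR adjusted p = 0.330). Hoxa10 averaged 18.2 ± 1.70 CPM after CCI and 12.01 ± 4.37 CPM after sham, with 0.60 ± 0.20 (edgeR adjusted p = 0.376). Without sham library 4 labelled knockout both were called, Hoxa9 at 0.39 (edgeR adjusted p = 0.0479) and Hoxa10 at 0.88 (edgeR adjusted p = 0.0222). Without sham libraries 1 and 2 labelled knockout, which carried Atf3, Hoxa9 had 0.22 and Hoxa10 0.41 (edgeR adjusted p = 0.539 and 0.654). Hoxb3 averaged 0.458 ± 0.271 CPM after CCI and 1.09 ± 0.521 CPM after sham, with −1.24 ± 0.47 (edgeR adjusted p = 0.414). Hoxa11 had 0 counts in the 4 sham libraries labelled knockout and 4, 0 and 8 counts in the 3 CCI libraries. The CCI mean was 4.5-fold above a floor of 3 counts over the sham group. That floor covers counting error of the sham group only, and Hoxa11 was not called (edgeR adjusted p = 0.481). Of the 30 tested members 3, among them Hoxd9 and Hoxd10, did not overlap between these groups, beside 7.56% of all tested genes.

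In sham libraries, labelled knockout against wild type, 1 of 30 Hox genes was called and it was lower, beside 1.0% of all tested genes called in either direction and 0.743% called lower. This was Hoxb5 (chromosome 11, 96194162 to 96196947), known in mouse for positioning the shoulder girdle. It had 8.80, 8.96, 13.8 and 16.5 CPM in sham libraries labelled knockout and 19.9, 22.3, 21.8, 23.0 and 20.7 CPM in wild-type sham libraries. No library of either group overlapped the other, and the log2 fold change was −0.84 ± 0.14 (edgeR adjusted p = 0.00235). It was lower in 4 of 4 libraries labelled knockout than in any wild-type sham library, a separation seen in 2.08% of all tested genes in that direction and 3.21% in either. Without sham libraries 1 and 2 labelled knockout the change was −0.50 and no longer called (edgeR adjusted p = 0.127), and with a spread estimated from the sham groups alone it was −0.84 (edgeR adjusted p = 0.0526). The Schwann cell markers moved in the same comparison. Of 6, 4 were called lower, and the sums over all 6 did not overlap between the genotype labels, as given above. Markers of other lists were called too. The fibroblast collagen Col3a1 had 42.3 to 58.5 CPM in sham libraries labelled knockout and 116.8 to 296.5 CPM in wild-type sham libraries (log2 fold change −1.94, edgeR adjusted p = 0.00371). Ednrb of the satellite glia list was lower (−0.66, edgeR adjusted p = 0.000749). Sprr1a of the axon injury list was higher (6.83, edgeR adjusted p = 0.0262), at 96.5, 45.4, 0.838 and 1.51 CPM in sham libraries labelled knockout and at most 0.538 CPM in wild-type sham libraries. The part of these markers in the Hoxb5 result was not tested.

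After CCI the same direction was measured for Hoxb5, with 11.5, 11.3 and 11.5 CPM in libraries labelled knockout and 18.4, 16.0, 18.8, 16.4 and 16.1 CPM in wild-type libraries. The groups did not overlap, and the log2 fold change of −0.59 ± 0.15 did not pass the threshold (edgeR adjusted p = 0.0811). DESeq2 called it, at −0.59 (DESeq2 adjusted p = 0.016), and edgeR called it without sham library 1, 2 or 4 labelled knockout in turn, at −0.59 each time (edgeR adjusted p = 0.0398, 0.0487 and 0.0213). Sham libraries enter this comparison only through the shared spread, the filter and the scaling. The same 6 Schwann cell markers summed to 5857 to 7207 CPM in CCI libraries labelled knockout and 10562 to 14618 CPM in wild-type CCI libraries. Col3a1 was called lower here as well (−1.80, edgeR adjusted p = 0.0134), at 53.6 to 64.0 CPM in CCI libraries labelled knockout and 144.7 to 297.0 CPM in wild-type CCI libraries. Their part in the Hoxb5 values was not tested. Within wild type, Hoxb5 was the only tested Hox gene that did not overlap between CCI and sham, 1 of 30 beside 4.83% of all tested genes, with −0.33 ± 0.13 (edgeR adjusted p = 0.208). The interaction was 0.26 ± 0.20 (edgeR adjusted p = 0.950), so a difference between the genotype effects after CCI and after sham was not detected.

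**Figure D4:**
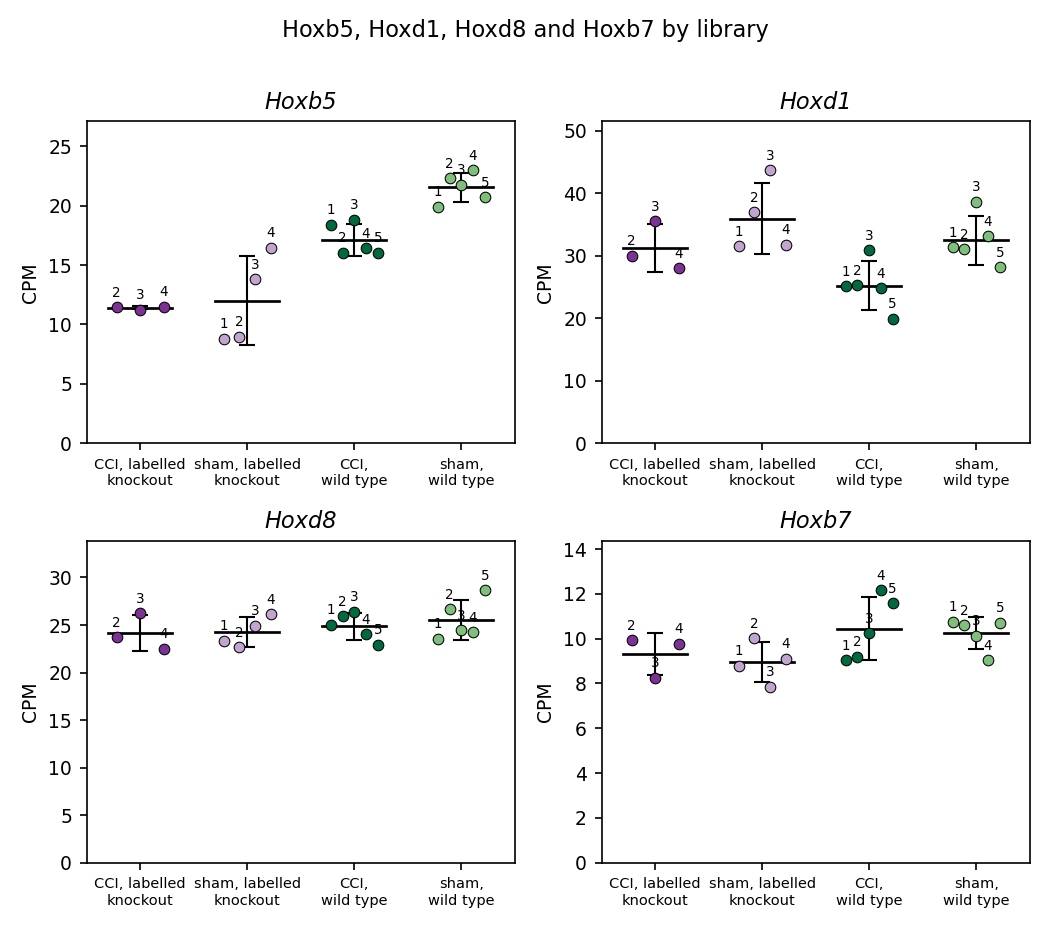
CPM of Hoxb5, Hoxd1, Hoxd8 and Hoxb7 in each library, by group, with points numbered by library, horizontal lines for group means and bars for SD. Hoxb5 lies at 8.80 to 16.5 CPM in the 7 libraries labelled knockout and at 16.0 to 23.0 CPM in the 10 wild-type libraries, and Hoxd8 lies at 22.5 to 28.7 CPM in all 17.

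The other members of the genotype comparison in sham did not pass the threshold, though 10 of 30 had an unadjusted p under 0.05, all lower, against 11.4% of all tested genes at that level and 5.94% lower. They were Hoxb4, Hoxb5, Hoxa9, Hoxb9, Hoxc9, Hoxd9, Hoxa10, Hoxc10, Hoxd10 and Hoxa11, 8 of them from paralogues 9 to 11. Hoxa9 had −0.29 ± 0.08 (edgeR adjusted p = 0.0856), Hoxd9 −0.51 ± 0.17 (edgeR adjusted p = 0.161), Hoxc10 −1.10 ± 0.36 (edgeR adjusted p = 0.178) and Hoxa10 −0.54 ± 0.18 (edgeR adjusted p = 0.190). DESeq2 called 3, Hoxa9, Hoxb5 and Hoxc10. The call count rested on single libraries. Without sham library 4 labelled knockout edgeR called 5 (Hoxb5, Hoxa9, Hoxb9, Hoxa10 and Hoxc10), without wild-type sham library 3 it called 3 (Hoxb5, Hoxd9 and Hoxc10), and without sham libraries 1 and 2 labelled knockout it called 0. Hoxa11 had 0 counts in the 4 sham libraries labelled knockout and 37, 14, 0, 0 and 9 counts in the 5 wild-type sham libraries. The wild-type mean was 16.1-fold above a floor of 3 counts over the group labelled knockout. Without wild-type sham library 1 it was 7.38-fold above. That floor covers counting error of the group labelled knockout only. Libraries of 0 counts lay in both groups, and Hoxa11 was not called (edgeR adjusted p = 0.122). The median log2 fold change of the 30 tested members was −0.17, beside 0.00 over all tested genes.

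After CCI, labelled knockout against wild type, 0 of 30 were called by edgeR, beside 0.684% of all tested genes. Hoxb5 and Hoxd1 had an unadjusted p under 0.05, against 8.78% of all genes, and DESeq2 called Hoxb5 alone. Hoxd1 had 30.0, 35.5 and 28.0 CPM in CCI libraries labelled knockout and 25.2 ± 3.90 CPM in wild-type CCI libraries (SD, n = 5), with 0.31 ± 0.13 (edgeR adjusted p = 0.436). In sham libraries labelled knockout Hoxd1 had 31.5, 36.9, 43.6 and 31.8 CPM. Hoxa7 had 0.19 ± 0.10 (edgeR adjusted p = 0.620) and Hoxb3 −0.77 ± 0.45 (edgeR adjusted p = 0.688). Paralogue 10 overlapped between the genotype labels after CCI, with Hoxa10 at −0.12 (95% interval −0.50 to 0.27) and Hoxc10 at −0.32 (−1.07 to 0.43). Hoxb5 and Hoxc9 did not overlap, 2 of 30 beside 8.52% of all tested genes. The median log2 fold change of the 30 tested members was −0.22, beside −0.01 over all tested genes. In the sham comparison it was −0.17, beside 0.00.

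For the interaction, the injury effect in libraries labelled knockout minus that in wild type, 0 of 30 Hox genes and 0.0% of all tested genes were called by edgeR. At an unadjusted p under 0.05 there was 1 Hox gene, Hoxa11, against 5.87% of all tested genes, and DESeq2 called no Hox gene. The next by p were Hoxd10 (3.21 ± 1.61, edgeR adjusted p = 0.864), Hoxc8 (0.42 ± 0.23, edgeR adjusted p = 0.889) and Hoxd9 (0.43 ± 0.24, edgeR adjusted p = 0.896). The interaction shares the sham libraries that stood apart with the comparisons above.

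**Figure D5:**
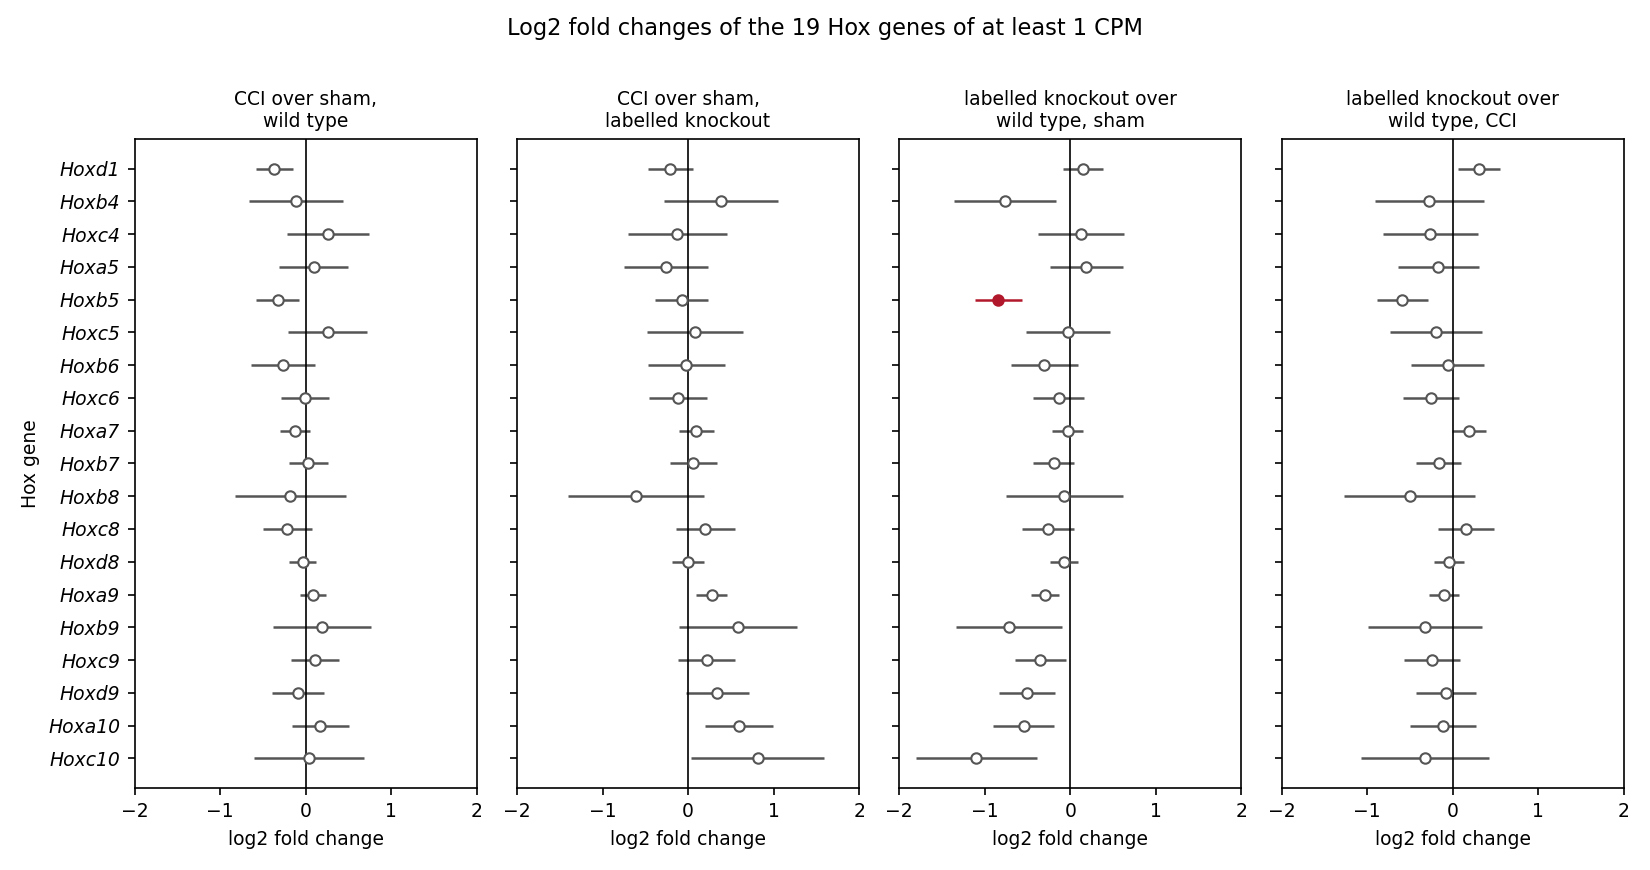
Log2 fold changes with 95% intervals (normal, from the SE) of the 19 Hox genes of at least 1 CPM, in order of paralogue number, in the 4 comparisons named above the panels. Normal intervals are narrower than the edgeR test allows, so an interval that leaves out 0 need not have an unadjusted p under 0.05. Hoxc10 for CCI over sham in libraries labelled knockout leaves out 0 at an unadjusted edgeR p of 0.0555. Only the filled red point, Hoxb5 at −0.84 for labelled knockout over wild type in sham, passed an edgeR adjusted p of 0.05. Members of paralogues 9 and 10 lie left of 0 in that panel and right of 0 for CCI over sham in libraries labelled knockout, and both panels share the sham libraries labelled knockout.

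No listed partner or regulator of Hox genes passed the edgeR threshold. Of the 9 TALE cofactors, homeodomain proteins that bind DNA together with Hox proteins, Pknox2 had 63.9 to 93.2 CPM and Meis3 44.2 to 57.5 CPM over all libraries. Pbx2 (−0.26 ± 0.09, edgeR adjusted p = 0.137) had the smallest p of the list for CCI over sham in wild type. Over the 9 cofactors, 10 tested activators and retinoic acid receptors, 17 Polycomb proteins, which keep Hox genes silent, 10 trithorax and demethylase proteins, which oppose them, and 7 tested genes flanking the clusters, 0 of 53 were called in any of the 5 comparisons. The numbers at an unadjusted p under 0.05 were 9 for injury in wild type, 5 for injury in libraries labelled knockout, 7 for genotype in sham, 6 for genotype after CCI and 4 for the interaction, of 53 each, beside 13.8, 8.63, 11.4, 8.78 and 5.87% of all tested genes in the same order. DESeq2 called 1 activator and 1 flanking gene in the sham genotype comparison and 1 trithorax or demethylase gene after CCI. Nearest to the threshold was Kdm6b, a histone demethylase that removes Polycomb marks, with −0.77 ± 0.19 for labelled knockout over wild type after CCI (edgeR adjusted p = 0.0555). It averaged 3.28 ± 0.687 CPM in CCI libraries labelled knockout and 5.61 ± 0.588 CPM in wild-type CCI libraries. Cdx2, an activator of Hox genes of high number in the embryo, and Evx1 and Evx2, at the ends of HoxA and HoxD, had 0 counts in every library.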

How the data were processed

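Each deposited table holds 1 library's unnormalized counts by Ensembl gene, which the authors made after base calling with bcl2fastq 2.20.0.422 and alignment with STAR 2.7.11a to GRCm39, per the submitters' processing notes. The names of the deposited tables point to htseq-count as the counting tool, but its strand setting and its annotation are not stated. The 5 summary lines that close each table were dropped. Symbols, exons and coordinates came from GENCODE M39, which matched 78168 of 78298 identifiers, and promoter sequences from RefSeq (GRCm38.p6).

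Library sizes were adjusted with TMM (edgeR's trimmed mean method) and filtered with filterByExpr by group (minimum count 10, minimum total 15), which left 23972 genes. The test was the quasi-likelihood F test of edgeR, fitted with a mean per group over 17 libraries (13 residual degrees of freedom), and p-values were adjusted by Benjamini-Hochberg over all of these genes, with a threshold of 0.05. The model was tested on simulated data. The software was R 4.3.3, edgeR 4.0.16, limma 3.58.1, DESeq2 1.42.0 and Python 3.11.15. Levels are CPM of the scaled library with the SD between libraries, and levels of different genes are compared per kb of exon. Sums over paralogues and clusters are of CPM and are not divided by length.

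The members and lists were chosen with earlier results of these data known. Fold changes are given for every member past the threshold and, below 4 of these, for those of smallest p up to 4; other members named with fold changes (among them paralogue 9 and 10 genes, Hoxd8, Hoxa7 and Hoxb7) were chosen after their values were seen. List members are named when past the threshold or as the smallest p of their comparison. Alternatives were other scalings, filters, lengths and samples, DESeq2's own test, a replicate block and leaving out libraries. No sums or scores over members were tested. Values of some genes of these lists are not reported here.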

Additional observations from a re-analysis of the deposited data

Results flagged for a closer look

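Of 90 sets of libraries (a Hox gene in a group of 4 or 5 libraries), 10 held a library far from the others. The rule flags about 1 set in 20 for independent, normally distributed values. These sets share libraries and some hold very low counts, so that rate is no background for the 10. The share flagged over all tested genes was not counted. Wild-type sham library 1 stood high for Hoxd10, at 8.061 CPM against 0.1177 to 0.4415 CPM in the other 4 libraries of its group. Wild-type sham library 3 stood low for Hoxa10, at 11.28 CPM against 18.31 to 20.25 CPM, and for Hoxb9, at 2.707 CPM against 6.459 to 7.867 CPM. Sham library 4 labelled knockout stood high for Hoxb9, at 6.918 CPM against 2.455 to 2.989 CPM in the other 3, and for Hoxd4, at 0.3807 CPM against 0.0 to 0.01904 CPM. Sham library 2 labelled knockout stood low for Hoxd9, at 7.711 CPM against 8.625 to 8.804 CPM. In wild-type CCI, library 4 stood high for Hoxa2 at 0.8519 CPM (others 0.0 to 0.2453) and for Hoxc4 at 4.537 CPM (others 3.314 to 3.618). In the same group library 3 stood high for Hoxa3 at 1.822 CPM (others 0.9504 to 1.056), and library 5 for Hoxc8 at 8.125 CPM (others 5.815 to 6.292). Groups of 3 libraries, which include CCI libraries labelled knockout, were not examined in this way.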

How the results depend on the processing

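The number of Hox genes called changed with several settings. For injury in wild type it was 0, but 1 (Hoxd1) with no low-count filter, with DESeq2 and with the replicate block, 2 (Hoxb5 and Hoxd1) with only the groups compared, 1 (Hoxb5) without sham libraries 1 and 2 labelled knockout, and 0 to 1 with each library left out. For injury in libraries labelled knockout it was 0, but 1 (Hoxa10) with no filter and 0 to 2 with each library left out. For genotype in sham it was 1, but 7 with no filter, 3 with DESeq2, 0 with only the groups compared, 0 without sham libraries 1 and 2 labelled knockout, and 1 to 5 with each library left out. For genotype after CCI it was 0, but 1 (Hoxb5) with no filter, with DESeq2, with only the groups compared and without sham libraries 1 and 2 labelled knockout, and 0 to 1 with each library left out. For the interaction it was 0 under every alternative run. The number called over all genes moved as well. For injury in wild type it was 733, but 1301 with no filter, 1158 with DESeq2, 1048 with only the groups compared and 980 without sham libraries 1 and 2 labelled knockout. For injury in libraries labelled knockout it was 20, but 224 with no filter. For genotype in sham it was 240, but 702 with no filter, 658 with DESeq2, 69 with only the groups compared and 37 without sham libraries 1 and 2 labelled knockout. For genotype after CCI it was 164, but 452, 398, 407 and 222 under the same 4 settings. The causes of these changes were not tested. Of the alternative values for single members and paralogue sums, 480 were kept, 24 became called, 2 lost the call (both Hoxb5 in sham), 2 moved (levels per kb of Hoxa7 and Hoxa9) and 2 reversed. A kept fold change had the same direction and side of the threshold, and a kept level or sum stayed within the SD between libraries. The list of highest levels per kb was kept if most of its genes stayed. Both reversals were Hoxd10 for injury in wild type, main value −1.68, which was 1.028 without wild-type sham library 1 and 0.777 without wild-type sham libraries 1 and 3, an alternative chosen after seeing the data. With each library left out it ranged from −2.056 to 1.028. Deviations of same-numbered libraries of different groups correlated at −0.013 to 0.118 over 22 pairs, with 1 over 0.1. Pairs of unlike number lay at −0.167 to 0.114 over 85 pairs. Every pair of libraries numbered 3 was positive, at 0.034 to 0.118, and Hoxd1 was highest in library 3 of each group. The labels do not say what the numbers mean, and the main fit did not take them as pairs. With the replicate block Hoxd1 had −0.373 for injury in wild type (edgeR adjusted p = 0.00345), and the block changed no other call of Hox genes. Hoxa11 and Hoxd10, both under 1 CPM, carry standard errors of at least 0.99 on the log2 scale. Hoxa11 had 111 counts over all libraries, and Hoxd10 had 783, of which 441 lay in wild-type sham library 1. Hoxa4, with 750 counts, had standard errors of 0.354 to 0.556. The part of depth in these errors was not tested.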
